A study of Heliconius melpomene malleti and Heliconius melpomene plesseni with 96 samples.

Results

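The proximal forewing of Heliconius melpomene pupae was compared between day 3 and day 1. The comparison used 12 arrays, 6 per day, out of 96 in the series, and took every array labelled as proximal forewing on those days. The 4 groups of 3 arrays were plesseni day 3, malleti day 3, plesseni day 1 and malleti day 1. Plesseni and malleti are races of one butterfly species with different wing colour patterns, and no treatment or allele was applied. Days are the developmental stages of the labels, which do not give their starting point. Each array carried total RNA from pupal wing tissue, labelled with Cy3, and arrays are named by the replicate number of their title. For 24 of the other arrays, the distal forewing and the hindwing on the same days and in the same races, the same step was measured, and it served as the comparison for what was particular to the proximal section. Replicates were described as independent without further detail, so p-values measure the spread between these samples. Whether sections came from the same individuals is not stated.

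Inside the pupa, butterfly wings are flat epithelial sheets. During the pupal stage epithelial cells leave the cell cycle, scale precursors are set aside and grow out, and cuticle and pigment are laid down later, as pulses of the moulting hormone ecdysone drive successive waves of gene expression. The proximal forewing is the part next to the body, and carries the wing hinge, the bases of the veins and the tracheae that enter the wing.

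The arrays measured 12832 features with a single intensity each, of which 12778 were predicted genes given by scaffold and position. Another 51 were transcribed features of 3 sequenced regions, the AC, BD and YB walks, whose names are those of colour pattern loci of this species. All were tested, with no filter on low values. No feature carried a gene name, none of the identifiers matched the gene table supplied, and the sources used here name no genome build. Features are therefore written as scaffold, start and end, no gene function can be stated, and the labelled tissue could not be set against marker genes. Values are log2 intensities after quantile normalization over the 96 arrays, and a difference of 1 is a 2-fold difference. A level cannot be compared between features, because probes differ. No detection call was used, so the low levels of a feature are not shown to be above background, and a change to or from such a level has no exact fold. In bulk tissue, fewer cells of a type and less RNA per cell cannot be told apart. A feature is called where limma's moderated test gave a Benjamini-Hochberg adjusted p below 0.05 over all 12832 features.

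Median deposited intensities were 62.6 to 151 in the day 3 arrays and 72.3 to 155 in the day 1 arrays. On day 3, replicates 10 and 84 of plesseni correlated at r = 0.991 and replicates 9 and 83 of malleti at r = 0.988 across features. The third array of each race stood apart, with r of 0.933 to 0.934 for replicate 80 of plesseni and 0.914 to 0.920 for replicate 79 of malleti. The same measure had a median of 0.946 over the 96 pairs within groups of the series, with a highest value of 0.993. Whether replicates 10 and 84, or 9 and 83, share an extract or a pool is not stated. They were counted as separate samples, and p-values would be too small if they were not. Counts without replicates 79 and 80 are given where they differ, and leaving them out was decided after their values were seen. In the other wing sections, replicates 5, 32, 34 and 55 were dim, with medians of 37.3 to 45.1, and results that use those sections are given with and without them. The precision of all values is limited by the number of arrays.

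Between day 1 and day 3 the proximal forewing changed widely and in both directions. Of 12832 features, 2348 were called (18.3%), 1123 higher (8.75%) and 1225 lower (9.55%) on day 3 (limma, adjusted p below 0.05). Called changes of at least 2-fold (13.9% of features) numbered 889 upward and 897 downward, fitted changes of at least 8-fold 191 and 152, and of at least 32-fold 48 and 20. The median size of the change was 1.46 on the log2 scale among called features and 0.39 over all features. Day 3 and day 1 arrays did not overlap at 524 of the features that rose and 554 of those that fell, and at 8.73% of all features. Without replicates 79 and 80, 3327 features were called (25.9%), including 2167 of the 2348. The division by direction depended on the scale: without normalization 644 features were higher and 2828 lower, and after centring on array medians 1210 were higher and 2377 lower. The median feature changed by -0.02 with quantile normalization, by -0.38 without it and by -0.20 with centring, and 34 (no normalization) and 19 (centring) of the 2348 called features changed sign. With slide as a fixed term 347 features were called, of which 335 were among the 2348, and with slide as a random block 2169 of the 2348 were still called.

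On later days the typical feature that rose stood lower again, and the typical feature that fell stood higher again. The features that rose had a median level of 6.16 on day 1, 8.42 on day 3, 7.41 on day 5 and 7.13 on day 7. Those that fell had 8.52, 6.43, 7.10 and 7.12 on the same days. On day 5, 458 of the 889 features that rose at least 2-fold were nearer to their day 1 level than to their day 3 level, and this was so for 332 of the 897 that fell. On day 7 these numbers were 471 and 334. Day 3 and day 1 levels chose these features, so their later course is a description with no test.

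Slides could be compared within themselves in 3 cases, in which 1 slide held arrays of both days. On these slides the single day 3 array and the single day 1 array differed in the same direction as the called change at 95.8% (replicates 10 and 75), 98.5% (83 and 77) and 92.1% (80 and 76) of the 2348 features. Replicate 10 is plesseni and replicate 75 is malleti, so in that pair day and race cannot be told apart. The pairs 83 and 77 (malleti) and 80 and 76 (plesseni) are each of 1 race. All of those arrays are among the 12 that gave the calls. Over all 12832 features, the shares were 73.4%, 74.5% and 67%. Calls were most common among features of intermediate level, when features were divided by mean level into classes of 25% each: 7.48% were called in the lowest class, then 24.2%, 23% and 18.5% in the highest. Of features measured by 9 probes, 19.1% were called, against 13.7% of those with 2 to 8 probes and 6.67% of those with 1 probe.

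The largest fitted increase was at HE671547:73513-80980, from a level near the bottom of the scale. Its log2 level was 10.81 at the lowest, 13.35 at the median and 13.67 at the highest of the 6 day 3 arrays, against 3.25, 4.09 and 4.67 in the 6 day 1 arrays. The days did not overlap in either race, and the lowest day 3 values were those of replicates 79 and 80. The change was 8.71 ± 0.48 on the log2 scale (SE; limma, adjusted p = 1.09e-07). Later the level was lower again, averaging 5.76 ± 1.26 on day 5 and 4.60 ± 0.68 on day 7 (SD, n = 6 each). The other wing sections changed at this feature by 8.80 (distal forewing) and 8.02 (hindwing).

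HE671115:268900-269670 had a log2 level of 14.56, 14.98 and 15.32 (lowest, median, highest) on day 3 and 6.12, 7.09 and 7.44 on day 1. All day 3 arrays lay far above all day 1 arrays. The increase was 7.99 ± 0.26 (SE), or 254-fold (limma, adjusted p = 1.85e-09). It lies in a stretch of 9 neighbouring features on the same scaffold, from 179344 to 291449, that were all called and rose at least 2-fold, with a median increase of 6.34. In the same stretch the distal forewing and the hindwing had medians of 5.63 and 5.23. The stretch was chosen after its values were seen.

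In the opposite direction, HE670342:30-224, a feature of 3 probes, had log2 levels of 5.88, 7.34 and 3.198 on day 3 in plesseni and 5.199, 6.38 and 3.09 in malleti, against 12.49, 12.87 and 12.89 on day 1 in plesseni and 13.15, 13.39 and 13.11 in malleti. Day 1 arrays were tightly grouped and day 3 arrays spread over a wide low range. It fell by 7.80 ± 0.65 on the log2 scale (SE; limma, adjusted p = 3.71e-06), and the changes in distal forewing and hindwing were -7.75 and -7.98.

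HE669825:15220-15745, measured by 6 probes, had a log2 level of 4.55, 4.71 and 7.36 on day 3 and 12.32, 12.72 and 13.72 on day 1. The highest day 3 values, 7.36 and 6.25, were those of replicates 79 and 80, and the days did not overlap. The feature fell by 7.47 ± 0.48 (SE; limma, adjusted p = 4.35e-07). The other sections changed by -3.41 (distal forewing) and -1.97 (hindwing), and neither was called (limma, adjusted p = 0.13 and 0.15). Without the dim arrays the distal change was -4.57 and was called (limma, adjusted p = 0.015), and the hindwing change of -1.48 was not (adjusted p = 0.26). The difference between the proximal step and their mean was -4.78 ± 1.29 with all arrays and -4.45 ± 1.06 without the dim ones (SE), and was called in neither case (limma, adjusted p = 0.22 and 0.069). In distal forewings of day 1 the 6 levels ran from 4.22 to 10.96.

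**Figure D1:**
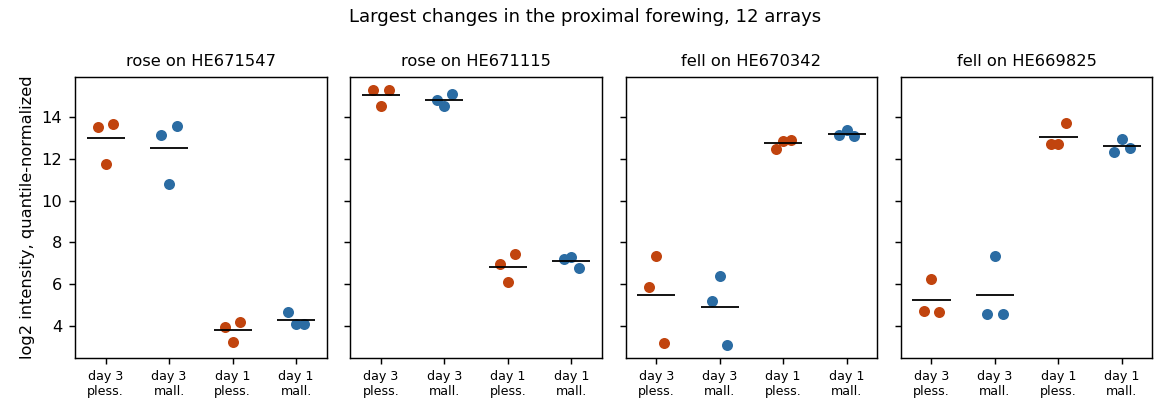
Log2 intensity after quantile normalization (vertical axis) of the 4 named features in each of the 12 proximal forewing arrays, by day and race. Points are arrays (orange, plesseni; blue, malleti) and lines are group means of 3 arrays; day 3 and day 1 do not overlap in any of the 4 panels, and the day 3 array nearest to day 1 in each race is replicate 79 or 80.

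In some pairs of neighbouring features both members changed in the same direction. Among 9535 pairs of neighbours on a scaffold, both members rose at least 2-fold in 122 and both fell in 156. Of the 12832 single features, 889 rose and 897 fell by that much. How many pairs these numbers alone would give is not stated here, so the pair counts do not show that neighbours changed together more often than other features. Runs of at least 4 such neighbours numbered 7 upward and 8 downward. Besides the stretch of 9, the longest was a run of 8 features on HE671280 from 748238 to 795712, all of which fell, with a median change of -2.66. The distal forewing and the hindwing had medians of -1.98 and -2.75 there. Its median level was 5.17 to 8.01 in the proximal arrays of day 3 and 6.09 (replicate 78) to 10.58 in those of day 1, so the days overlapped. Runs were picked out after their values were seen and carry no test.

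The proximal step was then set against the same step in the rest of the wing. A scale was made from the distal forewing and hindwing alone, with their mean day 1 array at 0 and their mean day 3 array at 1 and the 4 dim arrays left out. It used the 1381 features called in both of those sections with the same sign and an average change of at least 2-fold, 711 rising and 670 falling, so the proximal arrays had no part in making it. Proximal forewings of day 3 lay at 0.777 to 0.892 in plesseni and 0.821 to 1.05 in malleti, and those of day 1 at -0.031 to 0.126 in plesseni and -0.009 to -0.002 in malleti. The lowest day 3 value of each race was that of replicate 80 or 79. Distal forewings of day 3 lay at 0.531 to 1.09 and hindwings of day 3 at 0.703 to 1.06, with a dim array at the low end of each range. With the dim arrays left out these ranges were 0.835 to 1.09 and 0.893 to 1.06. The 3 plesseni proximal arrays of day 3 and malleti replicate 79 then lay below every hindwing, while all but replicates 80 and 79 lay within the distal range. Those distal and hindwing arrays chose the features and set the scale, so their day 3 arrays centre on 1 by construction. A lower position of proximal arrays therefore cannot be read as a smaller proximal change. Of the 1381 features, 1379 had the same sign in the proximal step and 1077 were called there with that sign. Later proximal forewings lay between the days, at 0.542 to 0.654 on day 5 and 0.453 to 0.524 on day 7, where malleti replicate 69 stood apart from the other arrays of its group (r of 0.85 and 0.864, against 0.969 between the others). Without replicate 69 the day 7 range was 0.464 to 0.524.

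**Figure D2:**
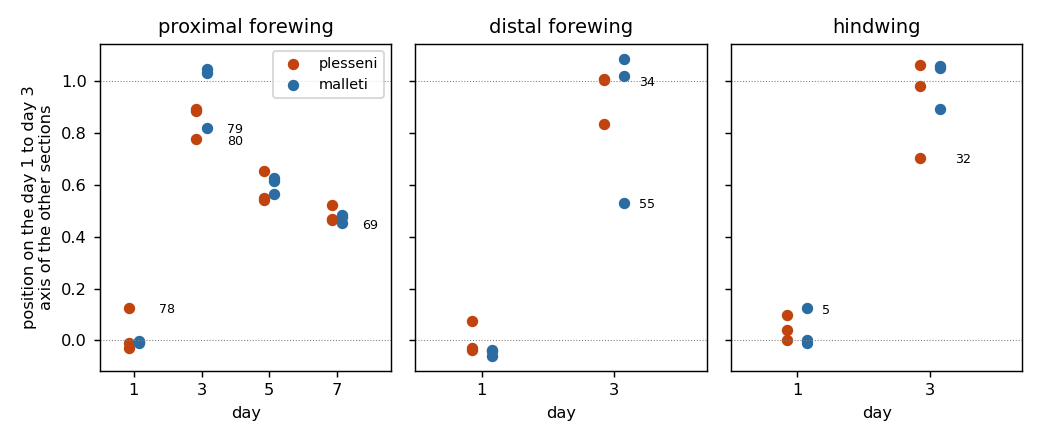
Position of each array (vertical axis, no unit) on a scale where 0 is the mean day 1 array and 1 the mean day 3 array of the distal forewing and hindwing, against day (horizontal axis); points are arrays, orange for plesseni and blue for malleti, with replicate numbers beside doubted arrays. Proximal forewings sit at -0.031 to 0.126 on day 1 and 0.777 to 1.05 on day 3, then fall back to 0.453 to 0.654 on days 5 and 7.

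Feature by feature, the sections shared much of the step. The distal step had 1528 called features (11.9%) and the hindwing step 1451 (11.3%), each in a fit to its own 12 arrays. With the distal forewing the proximal list shared 1043 features of the same sign, which is 44.4% of the proximal and 68.3% of the distal list. With the hindwing it shared 1066, or 45.4% of the proximal and 73.5% of the hindwing list. All 3 lists held 736 features, and no feature was called with opposite signs in the proximal forewing and either other section. Without the dim arrays, the distal step had 3006 called features (23.4%) and the hindwing step 2091 (16.3%), 1159 were shared by all 3, and 1 feature was called with the opposite sign in the distal forewing. In the eye, 123 features were called (0.959%).

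A list of 975 features was called in the proximal forewing and in neither other section, and 765 of them had the same sign in all 3 sections. Only 12 of the 975 passed the test of the difference between sections. Without the dim arrays these numbers were 592, 487 and 18. Over all 12832 features the correlation of the proximal step with the mean step of the other sections was 0.847, and 0.873 without the dim arrays, as a description of features that share arrays and are not independent.

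**Figure D3:**
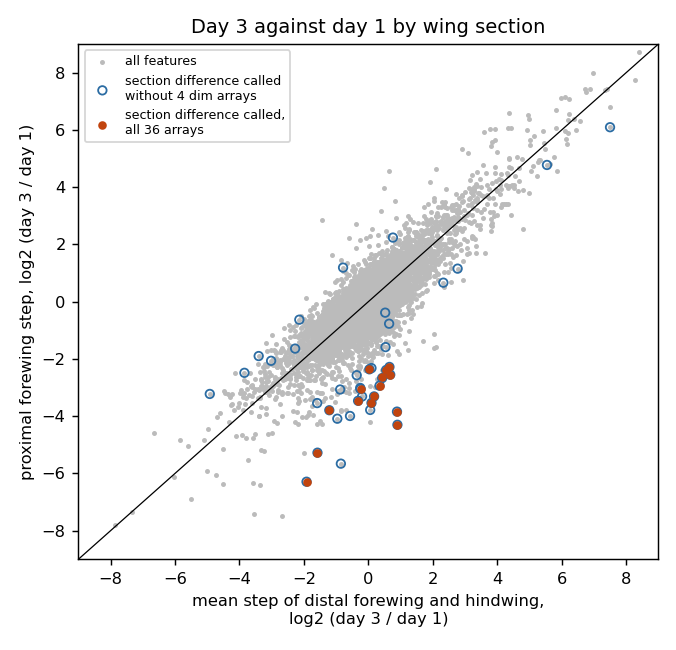
Log2 change, day 3 over day 1, in the proximal forewing (vertical axis) against the mean of the changes in distal forewing and hindwing (horizontal axis), 1 point per feature for 12832 features; the line marks equal changes. Filled orange points are the 15 features whose section difference was called with all 36 arrays, all below the line, and open blue circles the 40 called without the 4 dim arrays, 8 of them above it in that fit.

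With all 36 wing arrays, the features called as setting the proximal section apart were few, and were higher there on day 1 than elsewhere in the wing. The proximal step was compared with the mean of the distal and hindwing steps in a fit of all 36 wing arrays of both days. Of 12832 features, 15 were called (0.117%), all with a lower value of the difference, from -5.20 to -2.39 on the log2 scale with a median of -3.23 (limma, adjusted p below 0.05). None were called with a positive difference, where 268 features had an unadjusted p below 0.05, against 458 with a negative difference. The 15 lay on 15 scaffolds, and 13 of them were measured by 9 probes. When the 25% of features with the lowest mean were left out, 7 of the 15 were tested and 5 were called. With array weights 1203 features were called, including all 15. The list also grew, with calls of both signs, when doubted arrays were left out, as given below. On day 1 each of the 15 had its highest section mean in the proximal forewing, by a median of 2.99 over the mean of the other sections. On day 3 the median gap was -0.23. The same values gave the calls, so these gaps and the proximal falls that follow are descriptions, not further support. In the proximal forewing 14 of the 15 fell by the step test, while 2 were called as falling in the distal forewing. In the hindwing limma called 0 of the 15, with changes between -1.60 and 1.51. When the dim arrays were left out, 3 were called as falling distally and 2 in hindwings. With slide as a random block all 15 were still called, and with slide as a fixed term 0 were, with the same sign at all 15. Without replicates 79 and 80, 19 features were called, including 13 of the 15. In the fit of 96 arrays 18 were called, including 10 of the 15.

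The median over the 15 features was 3.403 to 4.52 in the 6 proximal arrays of day 3 and 6.14 to 10.81 in the 6 of day 1. In the distal forewing it was 3.23 to 4.62 on day 3 and 3.49 to 4.55 on day 1, and in the hindwing 3.42 to 5.10 on day 3 and 3.74 to 4.30 on day 1. By this median, every proximal array of day 1 was above every other wing array of those days, which is a description, since these arrays gave the calls. Feature by feature, all 6 lay above every day 1 array of the other sections at 8 of the 15. That count is a description too, with no share over all features to set it against. The later days were not used to choose the features: proximal forewings had 3.70 to 4.56 on day 5 and 3.39 to 4.69 on day 7, and the distal forewing and hindwing had 3.33 to 5.16 over the same days. In the eye on day 1, the mean level lay within 1 log2 unit of the mean of the other wing sections at 12 of the 15.

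Plesseni had the higher values. On day 1 the median over the 15 features was 7.33, 8.94 and 10.81 in plesseni replicates 76, 2 and 78, against 6.14, 6.66 and 6.71 in malleti replicates 75, 1 and 77. The plesseni mean was above the malleti mean at 14 of the 15 features, with no overlap at 10. Neither count has a share over all features beside it, and these arrays helped to choose the features, so both counts are descriptions only. The race difference on day 1 was called at 8 (3.04% of all features were called in that comparison). Replicate 78 was the highest of the day 1 arrays at 14 of the 15. Without replicate 78, 9 features were called in the section comparison, and 8 of the 15 were among the features still called. Without replicate 76, 65 were called, including all 15. With all arrays, no feature of the 15 had a called difference between the races in its change over time. Without replicates 79 and 80, HE668707:22970-23752 had one, of 2.35 on the log2 scale (limma, adjusted p = 0.022, and 0.088 with them).

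The feature with the widest section difference was HE670394:8528-10288. In plesseni it had log2 levels of 2.91, 5.85 and 2.81 on day 3 and 10.72, 7.21 and 13.08 on day 1. In malleti it had 2.89, 3.72 and 3.76 on day 3 and 5.29, 5.57 and 5.88 on day 1. Distal forewings ran from 2.80 to 4.30 on day 3 and 2.77 to 3.41 on day 1, and hindwings from 2.90 to 7.44 on day 3 and 2.91 to 3.32 on day 1. All 6 proximal arrays of day 1 lay above the highest day 1 array of the other sections. The proximal step was -4.30 ± 1.01 and the section difference -5.20 ± 0.87 (SE; limma, adjusted p = 0.0047).

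HE671584:137763-139002 had log2 levels of 5.35, 6.99 and 5.37 on day 3 in plesseni and 4.402, 7.14 and 4.51 in malleti, against 11.06, 8.06 and 12.48 on day 1 in plesseni and 8.29, 8.54 and 8.36 in malleti. Here malleti was also well above the other sections, which reached 5.32 (distal forewing) and 6.58 (hindwing) on day 1. The section difference was -4.73 ± 0.97 (SE; limma, adjusted p = 0.040). This call was lost in 26 of 48 other settings, with the same sign in all of them.

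**Figure D4:**
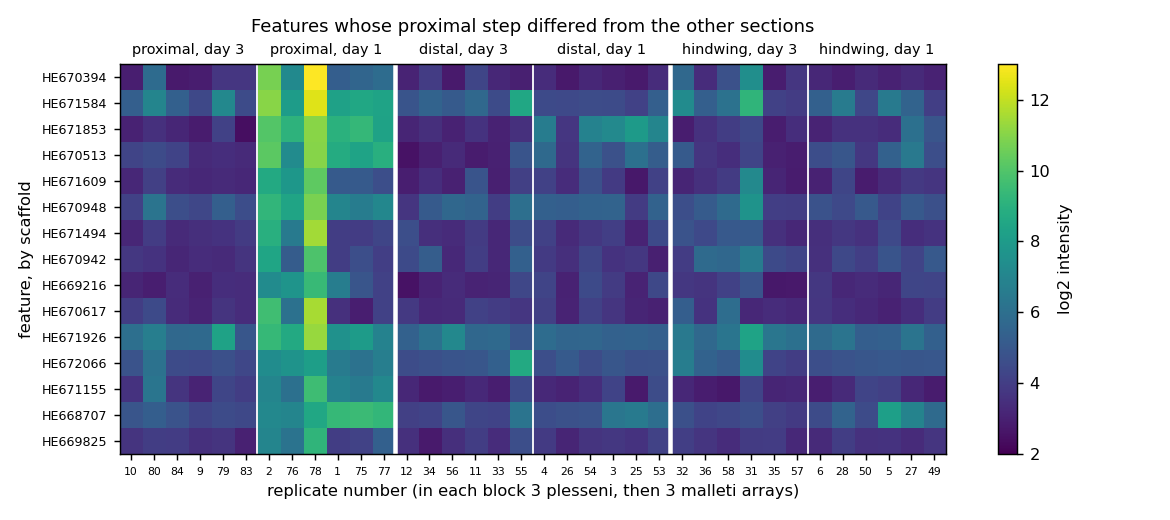
Log2 intensity (colour scale, 2 to 13) of the 15 features whose step differed between the proximal forewing and the other sections (rows, by scaffold) in the 36 wing arrays of day 3 and day 1 (columns, in blocks by section and day). The block of proximal forewings of day 1 is the bright one, with replicate 78 the brightest column, and the other 5 blocks are mostly dark.

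Leaving out the 4 dim arrays widened the list. It then held 40 features (0.312%), 8 with a positive (0.0623%) and 32 with a negative difference (0.249%), and 14 of the 15 remained. Of the 32, 31 had their highest section mean in the proximal forewing on day 1, with a median gap of 2.84 on day 1 and -0.02 on day 3. These gaps, too, come from the values that gave the calls. The 8 showed the reverse pattern in 7 cases, with the proximal forewing lowest of the 3 sections on day 1, and a median gap of -0.97 over the 8. The widest of the 8 was HE671338:75476-87115, at 5.65, 6.20 and 7.06 (lowest, median, highest) in proximal forewings of day 3 and 8.45, 9.11 and 10.72 on day 1. Distal forewings had 4.98, 5.99 and 7.11 on day 3 and 10.10, 11.14 and 11.71 on day 1. Hindwings had 5.92, 6.21 and 7.43 on day 3 and 10.26, 11.21 and 11.99 on day 1. The feature fell in all sections, and less so proximally, by a difference of 1.97 ± 0.38 (SE; limma, adjusted p = 0.021 without the dim arrays and 0.13 with them).

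HE670911:24957-30207 was called on the same side, with 7.42, 8.05 and 8.32 in proximal forewings of day 3 and 4.75, 7.01 and 8.41 on day 1. Distal forewings of day 1 ran from 8.78 to 9.88, all above the proximal ones, and hindwings from 7.00 to 9.79. The difference was 1.94 ± 0.42 (SE; limma, adjusted p = 0.037 without the dim arrays and 0.31 with them). When replicates 79 and 80 were left out as well, 206 features were called, 112 with a positive and 94 with a negative difference.

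Against the distal forewing alone, 1 feature was called (0.00779%), and against the hindwing alone 8 (0.0623%), all 9 with a negative difference. The number called by limma was 0 for a positive difference, where 348 and 183 features had an unadjusted p below 0.05. Without the dim arrays the counts were 6 (0.0468%) and 28 (0.218%). The single feature against the distal forewing was HE668707:22970-23752. Its log2 levels were 4.89, 5.29 and 4.80 on day 3 in plesseni and 4.25, 4.50 and 4.37 in malleti, against 7.16, 7.00 and 8.55 on day 1 in plesseni and 9.39, 9.50 and 9.26 in malleti. Distal forewings had 4.09 to 6.22 on day 3 and 4.61 to 6.50 on day 1, so that all proximal arrays of day 1 were above all distal ones. The difference was -2.97 ± 0.49 (SE; limma, adjusted p = 0.020). At this feature malleti, not plesseni, had the higher day 1 levels, unlike the other 14. The call was lost without replicates 79 and 80 (adjusted p = 0.050454) and without any of 9 single arrays.

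Against the hindwing, the widest differences were at HE670394:8528-10288, -5.81 ± 1.00, and at HE671853:166284-172484, -5.72 ± 0.65 (SE; limma, adjusted p = 0.011 and 2.08e-05). HE671853:166284-172484 had log2 levels of 3.04, 3.54 and 3.18 on day 3 in plesseni and 2.83, 4.13 and 2.42 in malleti, against 10.05, 9.11 and 11.04 on day 1 in plesseni and 9.01, 9.34 and 8.34 in malleti. Hindwings ran from 2.89 to 4.39 on day 3 and 3.09 to 6.06 on day 1. Distal forewings were intermediate on day 1, from 3.72 to 7.99, and were at 3.04 to 3.60 on day 3, a change of -3.26 that was called (limma, adjusted p = 0.0014). The proximal step was -6.29 ± 0.39 (SE), with -6.81 in plesseni and -5.77 in malleti.

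A further set of neighbours fell in the proximal forewing, without a call in the other sections when all arrays were used. On HE669253, 5 features from 4228 to 18456 were called as falling at least 2-fold, with a median change of -3.11, where the distal forewing and hindwing had medians of -0.39 and -0.77. Leaving out the dim arrays, 1 of the 5 was called distally and 0 in the hindwing. The median level of the 5 was 4.68 to 6.34 in the proximal arrays of day 3 and 7.79 to 11.23 in those of day 1, with replicate 78 again the highest. Distal forewings and hindwings stood at 5.04 and 5.15 on day 3 and 5.45 and 5.91 on day 1. On day 7 all sections were high, at 12.41 in the proximal forewing (replicate 69 included), 10.82 in the distal forewing and 11.53 for hindwings. All 5 section differences were negative, with a median of -2.30, but none was called (limma, adjusted p from 0.35 to 0.89), and 1 was called without the dim arrays.

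A run of 4 features on HE670910 from 215432 to 229808 had the same course. Its features were called as falling in the proximal forewing, with a median change of -2.85, against medians of -0.30 and -1.38 in the distal forewing and hindwing, where no feature of the run was called with all arrays and 2 were called in each section without the dim ones. Its median level was 5.89 to 8.16 in the proximal arrays of day 3 and 8.00 to 12.06 in those of day 1, so the days overlapped. The proximal level was 10.08 on day 5 and 12.49 on day 7. None of its 4 section differences was called (limma, adjusted p from 0.94 to 1.00). Both runs were chosen after their values were seen.

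Within the proximal forewing, the step differed between the races at 40 features (0.312%), with the change in plesseni above that in malleti at 19 (0.148%) and below it at 21 (0.164%) (limma, adjusted p below 0.05, 4 group means of 3 arrays). The differences ranged in size from 1.87 to 5.71 on the log2 scale. The fitted change reached 2-fold in plesseni alone at 14 features and in malleti alone at 11. It reached 2-fold in both races with opposite signs at 11 and with the same sign at 4. The race gap was wider on day 1 at 25 and wider on day 3 at 15. None of the 40 was among the 15 features with a section difference.

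The count rested on single arrays, and was 0 with slide as a fixed term (1236 at an unadjusted p below 0.05). In that fit replicates 1, 2, 9 and 78, each alone on its slide, again add nothing. It has little power, and its 0 cannot be read as the absence of a race difference. Without replicate 79 the count was 1799, without replicate 80 it was 91, and without both it was 2382 (18.6%), including all 40. It was 18 without replicate 2, 19 without replicate 10, 23 without 84, 24 without 9, 26 without 1 and 91 without 76. After centring on array medians, 32 were called with 22 on the higher side and 10 on the lower. The remaining day 3 arrays without replicates 79 and 80 are the pairs with r of 0.991 and 0.988, whose part in the larger count was not tested.

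Fitted for each race alone, the step gave 1075 called features in plesseni (8.38%) and 1672 in malleti (13%), from 3 arrays against 3. The races shared 555 features called in the same direction, which is 51.6% of the plesseni and 33.2% of the malleti list, and 7 were called in opposite directions. Between the races themselves 93 features differed on day 3 (0.725%) and 390 on day 1.

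Among the features where plesseni rose more, HE670645:16866-18391 had the widest difference. In plesseni its log2 levels were 10.95, 7.60 and 10.49 on day 3 and 5.70, 5.91 and 5.06 on day 1. In malleti they were 8.23, 9.38 and 8.27 on day 3 and 10.31, 9.49 and 10.84 on day 1. The day 1 levels of the races did not overlap, and replicate 80 was the low plesseni array of day 3. The step was 4.13 in plesseni and -1.58 in malleti, a difference of 5.71 ± 1.04 (SE; limma, adjusted p = 0.048). The call was lost in 14 of 23 other settings, with the same sign in all.

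HE670305:58436-62434 had log2 levels of 8.01, 9.13 and 8.04 on day 3 and 5.24, 5.47 and 4.91 on day 1 in plesseni, and 7.22, 9.25 and 7.69 on day 3 and 10.58, 10.37 and 10.49 on day 1 in malleti. The races met on day 3 and lay far apart on day 1. The steps of 3.18 in plesseni and -2.43 in malleti (limma, adjusted p = 0.0012 and 0.0055) differed by 5.61 ± 0.67 (SE; limma, adjusted p = 0.0044). In distal forewings of day 1 the races lay together, at 7.24 to 8.32 in plesseni and 7.73 to 7.96 in malleti.

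On the other side, HE672018:349503-350273 had 3.30, 3.55 and 3.38 on day 3 and 10.04, 9.76 and 8.24 on day 1 in plesseni. In malleti it was low on both days, with 3.84, 4.63 and 3.68 on day 3 and 4.67, 3.91 and 4.51 on day 1. The step was -5.94 in plesseni and -0.31 in malleti, a difference of -5.62 ± 0.62 (SE; limma, adjusted p = 0.0044). HE671202:124920-125735 followed the same course, with 5.32, 5.57 and 4.74 on day 3 and 10.18, 9.23 and 11.81 on day 1 in plesseni. Malleti had 5.34, 6.14 and 5.29 on day 3 and 6.08, 5.83 and 5.47 on day 1. Here the difference was -5.00 ± 0.76 (SE; limma, adjusted p = 0.017). At both features only plesseni of day 1 stood out among the 4 proximal groups.

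**Figure D5:**
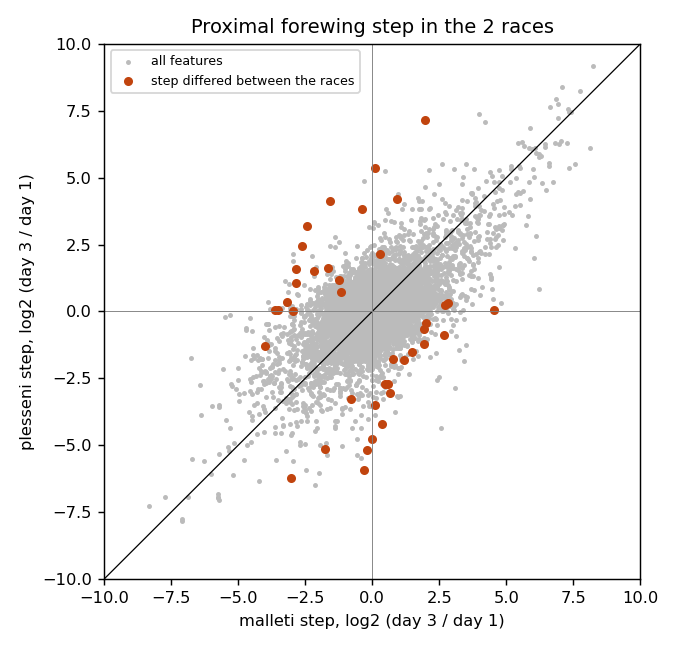
Log2 change, day 3 over day 1, in plesseni (vertical axis) against malleti (horizontal axis), 1 point per feature for 12832 features; the diagonal marks equal changes. Orange points are the 40 features whose step differed between the races, 19 above the diagonal and 21 below it.

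The walks cover regions linked to colour pattern differences between races. Of their 51 transcribed features 8 were called in the proximal step (15.7%, against 18.3% of all features), 5 rising and 3 falling. The AC walk held 5 of them among its 16 features, the BD walk 2 among 22 and the YB walk 1 among 13. No walk feature had a called section difference or race difference in its step, with smallest adjusted p-values of 0.37 and 0.11 (limma), and 4 and 6 of the 51 had an unadjusted p below 0.05.

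In the AC walk, AC_WALK:292749-297843 had 7.54, 5.28 and 7.99 on day 3 and 4.03, 4.10 and 4.10 on day 1 in plesseni, and 8.22, 9.67 and 8.43 on day 3 and 4.52, 3.07 and 4.63 on day 1 in malleti. All day 3 arrays were above all day 1 arrays. It rose by 3.78 ± 0.52 on the log2 scale (SE; limma, adjusted p = 2.38e-04), and was also called in the distal forewing (3.00) and hindwing (3.88). AC_WALK:450400-483854 had 3.68, 4.16 and 4.49 on day 3 and 7.39, 8.16 and 6.19 on day 1 in plesseni, and 6.22, 5.76 and 6.09 on day 3 and 8.12, 6.85 and 8.84 on day 1 in malleti. The days separated within each race. It fell by 2.52 ± 0.41 (SE; limma, adjusted p = 8.43e-04), and was called as falling in the distal forewing and hindwing too.

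The other called AC features changed less. AC_WALK:486270-489436 changed by -1.05, AC_WALK:267761-273653 by 1.33 and AC_WALK:385746-390167 by 0.75 (limma, adjusted p = 0.0077, 0.040 and 0.029). Of these, AC_WALK:486270-489436 was called in both other sections too, and the remaining pair in neither with all arrays. Both of that pair were called in the distal forewing without the dim arrays, with 0.87 and 0.55 (limma, adjusted p = 0.0027 and 0.042). The proximal call was lost in 16 of 26 other settings at AC_WALK:267761-273653, in 11 at AC_WALK:385746-390167 and in 4 of 25 at AC_WALK:486270-489436. In the BD walk, BD_WALK:342755-355247 had 5.56, 4.02 and 4.41 on day 3 and 7.27, 7.73 and 6.04 on day 1 in plesseni, and 4.38, 4.90 and 4.38 on day 3 and 8.90, 7.60 and 6.33 on day 1 in malleti. It fell by 2.70 ± 0.44 (SE; limma, adjusted p = 9.31e-04), and changed by -2.82 and -2.96 in the distal forewing and hindwing. BD_WALK:518010-518813 rose by 1.25 (limma, adjusted p = 0.022), a call lost in 9 of 26 other settings.

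The YB feature, YB_WALK:449912-464173, had 11.15, 9.69 and 10.58 on day 3 and 8.27, 7.15 and 9.08 on day 1 in plesseni, and 9.52, 8.96 and 9.24 on day 3 and 8.95, 9.03 and 8.32 on day 1 in malleti. The days separated in plesseni and overlapped in malleti. It rose by 1.39 ± 0.42 (SE; limma, adjusted p = 0.037), where the distal forewing changed by 0.18 and the hindwing by -0.39, neither called. The call was lost in 12 of 26 other settings. Its section difference of 1.49 ± 0.47 was not called (SE; limma, adjusted p = 0.37, and 0.14 without the dim arrays).

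For all 16 features of the AC walk a predicted gene with equal coordinates lay on scaffold HE668478. The 2 measurements had the same sign in 12 of the 16, with a median difference in log2 change of 0.25. Of the 5 called as walk features, 3 were also called as predicted genes. Those not called as predicted genes were AC_WALK:267761-273653 and AC_WALK:385746-390167. Their predicted genes changed by 1.11 and 0.37 (limma, adjusted p = 0.058 and 0.26). Each was measured by 3 probes as a walk feature and by 9 as a predicted gene.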

How the data were processed

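Groups were taken from the labels for race, tissue and day. The deposited values are linear intensities, 1 for each feature on each array, and RMA is the tool that the submitters' processing notes name, without version or settings. From each deposited intensity the log2 was taken, the 96 arrays were quantile-normalized, and limma version 3.58.1 in R version 4.3.3 (lmFit, eBayes) was fitted to all 12832 features, with Benjamini-Hochberg adjustment over them. The proximal step used 12 arrays with day and race. Section differences used 36 wing arrays and 12 group means, and the race comparison 12 arrays and 4 group means. The procedure was tested on simulated data. Slides were read from the array file names.

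Alternatives covered scaling, slide, detector gain, low features, eBayes options, array weights, the arrays fitted and each array left out. The arrays, lists and alternatives were chosen with earlier results of these data known, and those without replicates 79 and 80 after the data were seen. Gene lists could not be looked up, since 0 of 12832 identifiers matched the supplied table. At most 2 rising and 2 falling features are named per comparison, those with the largest change among called features (for the step, without overlap of the days), besides every called walk feature.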

Additional observations from a re-analysis of the deposited data

Results flagged for a closer look

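In groups of 6 arrays, 1 of 44 groups tested held an array far from the others, where chance alone flags about 1 group in 20. It was HE670394:8528-10288 in proximal forewings of day 3, where plesseni replicate 80 had a log2 level of 5.85 and the other 5 arrays 2.81 to 3.76.

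The remaining results stand here because the same step differed between sections or races by the test of the difference itself (limma, adjusted p below 0.05). Against the mean of the other sections the proximal step differed by -5.20 at HE670394:8528-10288 and by -4.73 at HE671584:137763-139002. Against the distal forewing it differed by -2.97 at HE668707:22970-23752. Against the hindwing it differed by -5.81 at HE670394:8528-10288 and by -5.72 at HE671853:166284-172484. Between the races, the plesseni step minus the malleti step was 5.71 at HE670645:16866-18391, 5.61 at HE670305:58436-62434, -5.62 at HE672018:349503-350273 and -5.00 at HE671202:124920-125735.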

How the results depend on the processing

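No paired analysis was possible because each replicate number occurs once in the series. The proximal step, with 2348 called features, gave 3587 after centring on array medians, 347 with slide as a fixed term, 1382 at one detector gain, 3559 with array weights and 1075 in plesseni alone, and 1815 to 2646 with single arrays left out. None of the 2348 changed sign with slide as a fixed term, and 335 remained called. The section difference (15) gave 35 on the deposited scale, 26 after centring, 0 with slide as a fixed term (926 at an unadjusted p below 0.05), 5 without the lowest 25% of features (7 of the 15 were tested), 1203 with array weights, 40 without the dim arrays and 206 without these and replicates 79 and 80. Single arrays left out gave 8 (replicate 10) to 65 (replicate 76), with 9 without 1, 9, 49, 50, 53, 78, 83 or 84, 26 without 5 and 23 without 33. Against the distal forewing (1) the counts were 5 on the deposited scale, 326 after centring, 0 with slide as a fixed term (1962 unadjusted), 471 with array weights, 13 in the fit of 96 arrays, 6 without the dim arrays, 0 without replicates 79 and 80 (1259 unadjusted), 60 without all 6, and 0 to 33 with single arrays left out (0 without 1, 4, 9, 10, 53, 56, 75, 78 or 84, with 712 to 943 at an unadjusted p below 0.05, and 2 without 33, 3 without 77, 5 without 11, 9 without 31 and 33 without 76). Against the hindwing (8) they were, in the same order, 24, 1, 1, 1017, 17, 28, 13 and 91, with 2 without the lowest 25% of features and 4 to 38 with single arrays left out (4 without 6, 10, 50 or 84, 5 without 9, 27, 36, 49 or 83, 17 without 26, 19 without 55 and 38 without 76). The race difference (40) gave 11 on the deposited scale, 0 with slide as a fixed term (1236 unadjusted), 2 at one gain, 4482 with array weights, 5 in the fit of 96 arrays, 2382 without replicates 79 and 80, and 18 to 1799 with single arrays left out. The causes of these changes were not tested. The named features kept their sign in all settings run. The setting at one gain was not run for the section difference or against the hindwing, where a group had no such array.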
